A study of Homo sapiens with 30 samples.

Results

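The receptors through which cells read bone morphogenetic proteins (BMPs) and transforming growth factor beta (TGF-beta) were examined in 5 established lines of human breast cancer, ZR-75-30, SK-BR-3, HCC1419, MDA-MB-361 and HCC1954. Every probe named on the array for ACVR1, BMPR1A, BMPR1B, TGFBR1, ACVR2A, ACVR2B, BMPR2, TGFBR2 or TGFBR3 was taken, whatever its value, which gave all 9 genes, of 30484 distinct gene or transcript names on the array, and 15 of 41000 probes. BMPR1A and ACVR2B had 3 probes each, BMPR2 and TGFBR2 had 2 each, and a gene with several probes was represented by its brightest. Recombinant human BMP4 or vehicle had been left on the cells for 6 lengths of time, the shortest 30 min, the longest 24 h and the others 1, 3, 6 and 12 h, with no genetic change and no other agent named in the labels. Each of the 30 two-colour arrays set RNA from the pooled cells of triplicate BMP4 treatments (Cy5 dye) against RNA from those of triplicate vehicle treatments (Cy3 dye) of 1 line at 1 time, so a line had 6 arrays and a time point 5. Each line is a single established culture, and the dyes were never swapped.

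BMP and TGF-beta ligands bind pairs of transmembrane kinases. A type II receptor (BMPR2, ACVR2A or ACVR2B for BMPs, TGFBR2 for TGF-beta) phosphorylates a type I receptor (ACVR1, BMPR1A or BMPR1B for BMPs, TGFBR1 for TGF-beta), which in turn phosphorylates SMAD proteins that enter the nucleus. ID1, a helix-loop-helix inhibitor of differentiation, is a direct SMAD target in many cells and served here as the measure of each line's response to BMP4.

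The share of probes well above background in the vehicle channel lay between 58.9% and 70.6% per array. KRT8, KRT18, KRT19, TACSTD1 (EPCAM) and ERBB2 were well above background on 30 of 30 arrays, and the epithelial cadherin CDH1 on 24, with SK-BR-3 as the line without it. DCN of fibroblasts and PTPRC of leukocytes were above background on 0 arrays, while COL1A1 was on 28 and CD3E and CD14 were on 30. No slide held more than 1 line, and of the 7 scan days only 1 held 2 lines, HCC1954 and ZR-75-30.

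The vehicle channel was used to ask how the receptors differ between the lines where no BMP4 was added. Levels are log2 Cy3 signals normalised between arrays, so a step of 1 is a doubling of the processed signal. That signal holds an offset of 50, which makes steps and folds of dim probes smaller than those of the transcript. The range of BMPR1B over the lines was 0.92, and 0.72 to 3.48 with alternative processing. TGFBR2 differed most, being bright in HCC1954 and at background in HCC1419, and BMPR1B was detected in HCC1954 and ZR-75-30 alone. In RNA of many cells, fewer cells with a transcript and less of it per cell cannot be told apart. ACVR1, BMPR1A, ACVR2A, ACVR2B and TGFBR1 differed by 2.13-fold to 3.04-fold between the highest and the lowest line, whereas the brighter BMPR2 probe did not pass the test. In limma's F test over the lines, 8 of 9 receptors passed an adjusted p of 0.05, at a background of 73% of all probes, so the share of receptors is near that of the array as a whole. The tests of single pairs of lines had backgrounds of 49.4% (HCC1419 and HCC1954), 42.9% (HCC1419 and MDA-MB-361), 47.8% (HCC1419 and SK-BR-3), 43.9% (HCC1419 and ZR-75-30) and 51.7% (HCC1954 and MDA-MB-361). For the remaining pairs they were 45.2% (HCC1954 and SK-BR-3), 40.8% (HCC1954 and ZR-75-30), 53.9% (MDA-MB-361 and SK-BR-3), 46.7% (MDA-MB-361 and ZR-75-30) and 43.4% (SK-BR-3 and ZR-75-30). The range of the line means had a median of 1.27 (log2) over the 9 receptors and of 0.811 over all probes. Over the 26231 probes well above background on more than 15 arrays, which leave out BMPR1B and TGFBR3, it was 1.21. The plot of vehicle levels shows all 30 values of each receptor.

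**Figure D1:**
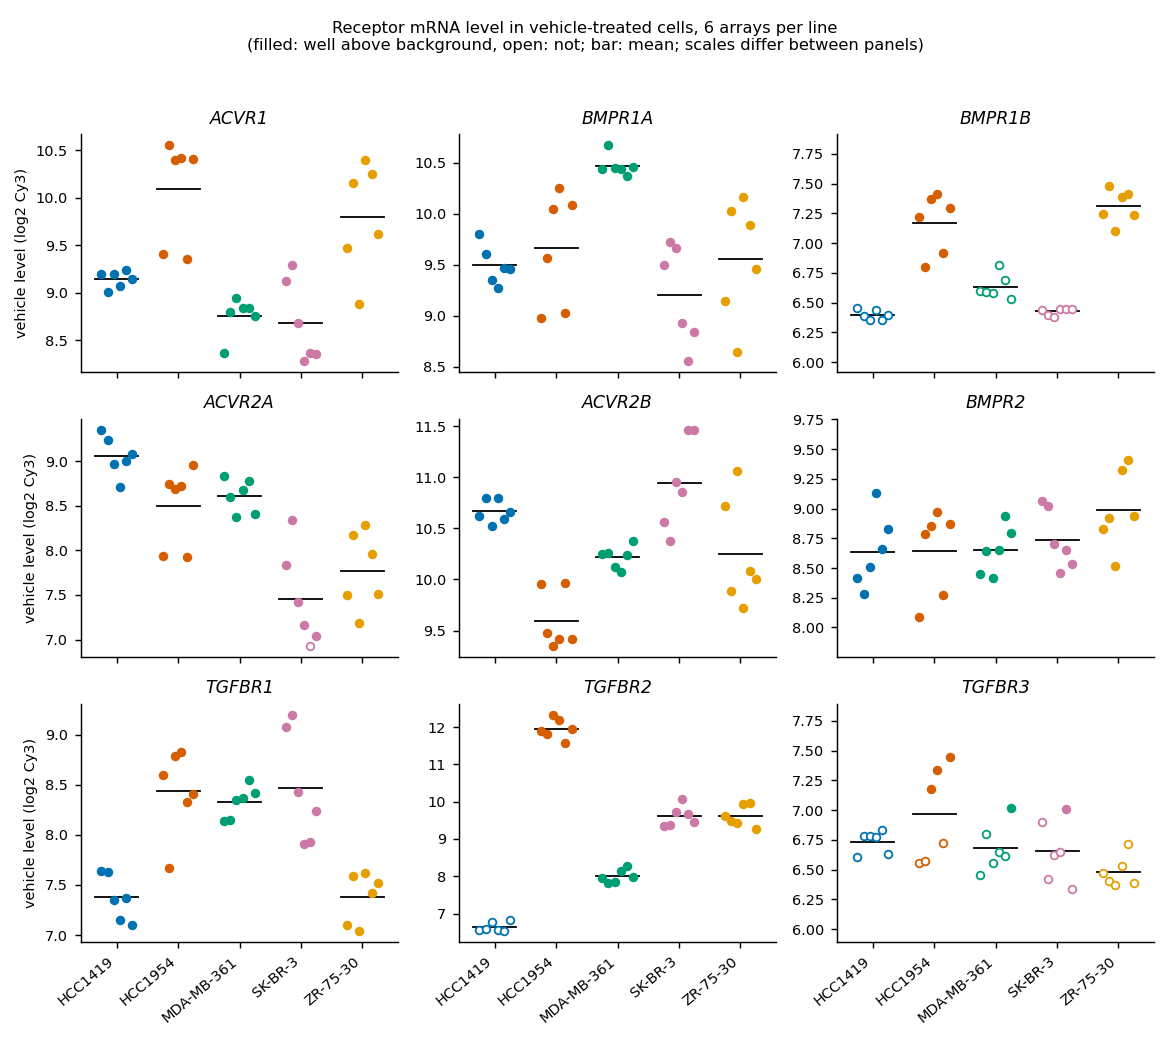
Vehicle level (log2 Cy3 signal, vertical axis; scales differ between panels) of each receptor in the 5 lines, 1 point per array (30 min to 24 h from left to right), filled where well above background and open where not, with the mean of 6 arrays as a bar. TGFBR2 separates into 4 levels, from a mean of 6.64 in HCC1419 to 11.96 in HCC1954, and BMPR1B has filled points in HCC1954 and ZR-75-30 only.

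TGFBR2, the type II receptor of TGF-beta, is measured by a probe at chr3:30710167-30710226 (hg18). In HCC1954 its vehicle level ran from 11.59 to 12.33 with a median of 11.93. SK-BR-3 (9.34 to 10.08, median 9.56) and ZR-75-30 (9.26 to 9.96, median 9.55) lay together below it. MDA-MB-361 ran from 7.82 to 8.28 (median 7.97), and HCC1419 from 6.53 to 6.82 (median 6.57) with 0 of 6 arrays well above background. The arrays of the lines did not overlap, except for SK-BR-3 and ZR-75-30, whose means differed by 0.01 ± 0.12 (log2 difference ± SE, adjusted p = 0.971). HCC1954 exceeded ZR-75-30 by 5.08-fold (adjusted p = 1.09e-13), and on the 3 arrays of each line scanned on the shared day the difference was 2.49 on the log2 scale against 2.35 over all arrays. Against HCC1419 set to a floor, HCC1954 was 38.6-fold higher (adjusted p = 1.26e-20 for the measured levels), and SK-BR-3, ZR-75-30 and MDA-MB-361 were 7.56-fold, 7.60-fold and 2.48-fold higher. For these folds each HCC1419 array was given the higher of its measured level and the lowest signal of any probe called above background on that array. Such a floor is not a detection limit of the TGFBR2 probe, and the measured fold of HCC1954 over HCC1419 was 40.1. Of the probes well above background on more than 15 arrays, 1.22% had a range over the lines as wide as or wider than that of TGFBR2. The other TGFBR2 probe was dimmer and also had its highest mean in HCC1954 (8.10, 6 of 6 arrays above background). With the same floor this was 2.84-fold above HCC1419 and MDA-MB-361, which were not above background on any array. ZR-75-30 (6.93) and SK-BR-3 (6.84) were above background on only 3 and 2 of 6 arrays.

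TGFBR1, the type I partner of TGFBR2 (probe at chr9:100952018-100952077), had another order of lines. Its vehicle level was 8.46 ± 0.56 in SK-BR-3, 8.43 ± 0.43 in HCC1954 and 8.33 ± 0.16 in MDA-MB-361 (SD, n = 6 each), and 7.38 ± 0.25 in ZR-75-30 and 7.38 ± 0.23 in HCC1419. The upper 3 lines did not differ among themselves beyond their spread (adjusted p = 0.936 and 0.724 for neighbours), nor did the lower 2 (adjusted p = 0.985), while the step between MDA-MB-361 and ZR-75-30 was 1.93-fold (adjusted p = 0.000716). ZR-75-30 thus combined an intermediate TGFBR2 level with the low TGFBR1 level it shared with HCC1419, the line in which TGFBR2 was at background. All HCC1419 and ZR-75-30 values lay below every value of the upper 3 lines, though the 1 h array of HCC1954 (7.67) came close to the highest of HCC1419 (7.64).

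TGFBR3, or betaglycan, presents TGF-beta to TGFBR2. Its probe (chr1:91921476-91921535) was well above background on 5 of 30 arrays, 3 of them HCC1954 and 1 each MDA-MB-361 and SK-BR-3, and line means lay between 6.48 and 6.97. Its F test passed narrowly (adjusted p = 0.0492). The call was lost when HCC1419, HCC1954 or ZR-75-30 was left out (adjusted p = 0.064, 0.172 and 0.244). It was also lost with the slide as a random block (0.321) and with the Cy3 channel quantile-normalised alone (0.0542).

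Among the type I receptors of BMPs, ACVR1 (probe at chr2:158301680-158301739) was highest in HCC1954 (10.09 ± 0.55, SD, n = 6) and ZR-75-30 (9.80 ± 0.58), followed by HCC1419 (9.14 ± 0.09), MDA-MB-361 (8.76 ± 0.20) and SK-BR-3 (8.68 ± 0.43). Between neighbours in this order the step from ZR-75-30 to HCC1419 passed the test (1.57-fold, adjusted p = 0.0283), and the other steps did not. The values of HCC1419 lay between 9.01 and 9.24, those of HCC1954 ran from 9.36 to 10.56 and those of ZR-75-30 from 8.89 to 10.40. HCC1954 thus stayed above HCC1419, whereas ZR-75-30 overlapped with it. On the shared scan day HCC1954 exceeded ZR-75-30 in ACVR1 by 0.88 (log2, 3 arrays of each line at partly different times), against 0.30 over all arrays.

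BMPR1A (brightest probe at chr10:88673878-88673937) was highest in MDA-MB-361, where it ran from 10.37 to 10.68, above all values of the other 4 lines. HCC1954 (8.98 to 10.26), ZR-75-30 (8.64 to 10.16), HCC1419 (9.27 to 9.80) and SK-BR-3 (8.55 to 9.72) followed without a step between neighbours that passed the test, and MDA-MB-361 was 1.75-fold above the nearest, HCC1954 (adjusted p = 0.0077). All 3 BMPR1A probes put MDA-MB-361 first. The difference rested on that line, since without it the range of the line means was 0.46 and the F test gave an adjusted p of 0.476. With the scan day as a random block the adjusted p of BMPR1A was 0.0874, and all MDA-MB-361 arrays were scanned on a day of their own, so line and day cannot be told apart.

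BMPR1B, the remaining type I receptor of BMPs, has a probe whose stated position, chr4:96289061-96292839, covers 3779 bases, more than a probe's own length. Detection was complete, on 6 of 6 arrays each, in ZR-75-30 (7.10 to 7.48, median 7.32) and in HCC1954 (6.80 to 7.41, median 7.26). It was above background on 0 of 6 arrays in each of HCC1419, MDA-MB-361 and SK-BR-3, where measured values ran from 6.35 to 6.81. With these lines set to the floor used for TGFBR2, ZR-75-30 was 1.58-fold to 1.67-fold and HCC1954 1.43-fold to 1.51-fold above them. The adjusted p of the measured levels was at most 5.9e-06, and ZR-75-30 and HCC1954 did not differ beyond their spread (adjusted p = 0.191). For the other 3 lines the arrays give only an upper bound on BMPR1B.

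Of the type II receptors that BMPs use, ACVR2A (probe at chr2:148401393-148401452), which also binds activins, was highest in HCC1419 (8.71 to 9.35, median 9.04). MDA-MB-361 (8.37 to 8.84, median 8.64) and HCC1954 (7.93 to 8.96, median 8.70) came next, and ZR-75-30 (7.19 to 8.29, median 7.73) and SK-BR-3 (6.93 to 8.34, median 7.29) were lowest. The upper 3 lines each exceeded the lower 2 in the tests of pairs, by 1.65-fold to 3.04-fold (adjusted p at most 0.00755). HCC1419 also exceeded HCC1954 (1.48-fold, adjusted p = 0.0304), and ZR-75-30 did not differ from SK-BR-3 beyond the spread (adjusted p = 0.254). The arrays of HCC1419 and MDA-MB-361 did not overlap with those of the lower lines, while the 30 min and 12 h arrays of HCC1954 did.

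ACVR2B, the close relative of ACVR2A (brightest probe at chr3:38499784-38499843), was highest in SK-BR-3, the line with the lowest ACVR2A mean (10.94 ± 0.45, SD, n = 6), and lowest in HCC1954 (9.60 ± 0.28, 2.54-fold, adjusted p = 3.03e-06). HCC1419 (10.67 ± 0.11), ZR-75-30 (10.25 ± 0.52) and MDA-MB-361 (10.22 ± 0.11) lay between them. The 3 ACVR2B probes did not give the same order. A second probe had HCC1419 highest and HCC1954 lowest (2.64-fold), and the third had SK-BR-3 highest and MDA-MB-361 lowest (1.70-fold), all with adjusted F test p-values at most 7.75e-05.

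BMPR2, the type II receptor specific to BMPs (brighter probe at chr2:203132877-203132936), was the most even of the receptors. Line means of its brighter probe ran from 8.64 in HCC1419 to 8.99 in ZR-75-30, and 95.4% of the probes well above background on more than 15 arrays had a wider range over the lines. Its F test gave an adjusted p of 0.237 and 0 of 10 pairs of lines passed. The values of every pair of lines overlapped. The result depended on the probe and on the model, since the dimmer BMPR2 probe passed (adjusted p = 0.00138), with MDA-MB-361 1.88-fold above HCC1954, and array weights brought the brighter one past the threshold as well (adjusted p = 0.0197).

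Over the time course in vehicle alone, 0 of 9 receptors moved between the mean of 30 min and 1 h and the mean of 12 and 24 h by limma (background 2.54% of probes, and 0 of 9 at an unadjusted p under 0.05, against 20.6% of probes). Among the brightest probes the largest of these differences was that of ACVR2A, at −0.30 ± 0.16 (log2 ± SE, adjusted p = 0.31). The dimmest ACVR2B probe had a larger one, 0.33 ± 0.09 (unadjusted p = 0.00149, adjusted p = 0.0531), and also missed the threshold.

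The strength of the ID1 response was then set beside the receptor levels, in a description without a test because there were 5 lines. The response was taken as the late rise, the mean log2 ratio of BMP4 over vehicle at 3, 6, 12 and 24 h minus that at 30 min. HCC1419 had the largest late rise (1.33), HCC1954 (1.25) and MDA-MB-361 (1.14) came next, and SK-BR-3 (0.77) and ZR-75-30 (0.60) had the smallest. The late rise of ID1 did not pass limma's interaction test between lines (adjusted p = 0.922), although its ratio over all times did pass the test between lines (adjusted p = 0.0122), and by the mean ratio at 1 to 24 h SK-BR-3 (1.02) came below ZR-75-30 (1.14). Over the late arrays scanned on the same day as the 30 min array of their line, the rise was 1.33 in HCC1419 (4 arrays), 1.14 in MDA-MB-361 (4 arrays), 1.098 in HCC1954 (1 array) and 0.52 in ZR-75-30 (2 arrays), with no such array in SK-BR-3. The order of HCC1954 and MDA-MB-361, and that of SK-BR-3 and ZR-75-30, thus depended on the measure.

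**Figure D2:**
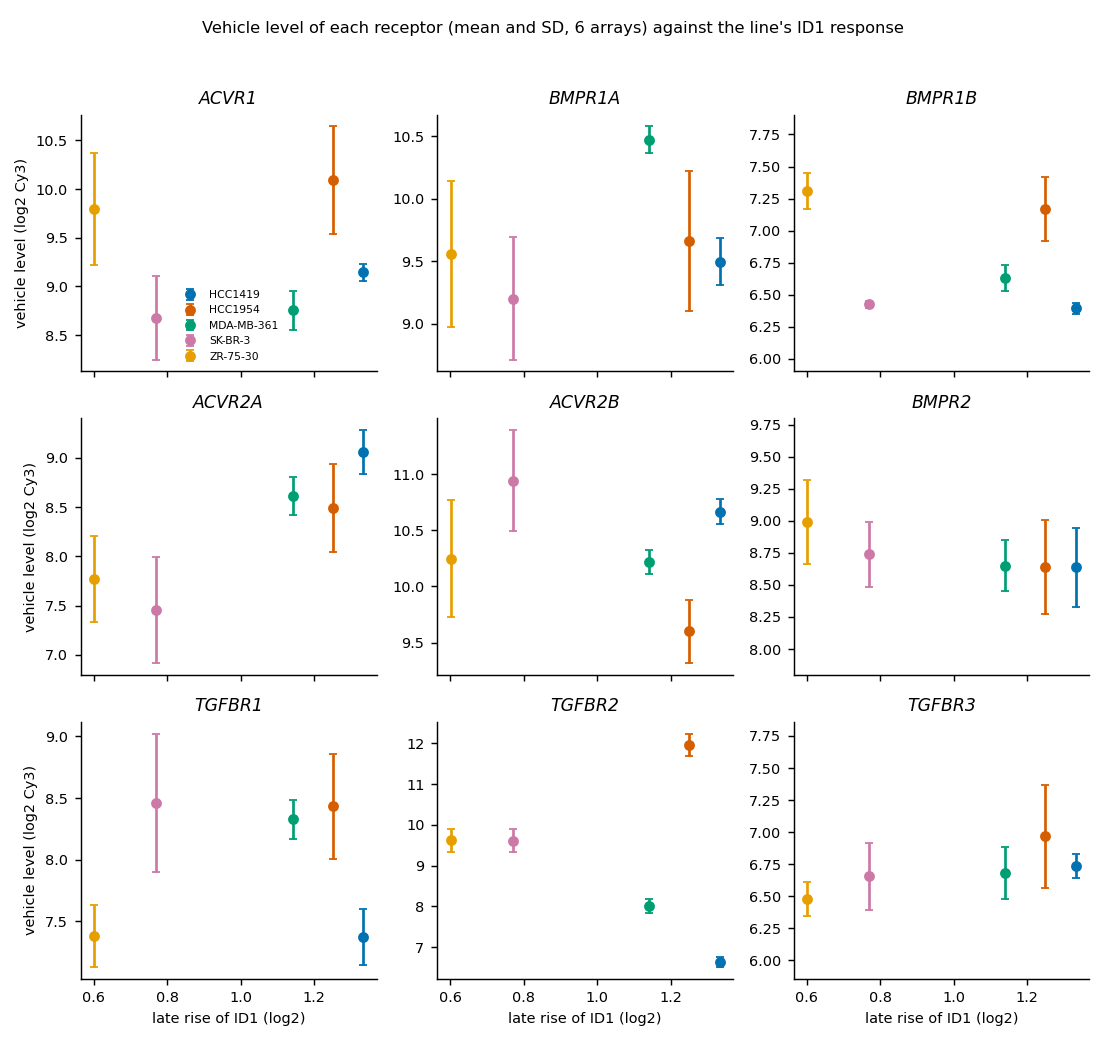
Vehicle level (log2 Cy3 signal, mean and SD of 6 arrays; scales differ between panels) of the brightest probe of each receptor against the late rise of ID1 (log2) of the same line, 1 point per line. For ACVR2A the lines with an ID1 late rise of 1.14 or more have means of 8.49 or more and the others have means of 7.77 or less, while for TGFBR2 the line with the highest ID1 rise has the lowest level.

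In ACVR2A the 3 lines with the higher ID1 response were also the 3 with the higher level (8.49 to 9.06 against 7.46 and 7.77). The same 3 lines ranked first in TGFBR3, but there most values were not above background. Among the brightest probes no other receptor divided the lines in this way, but the dimmest BMPR1A probe did (8.73 to 9.49 against 8.44 and 8.52), with a called step only between MDA-MB-361 and HCC1954. The brightest BMPR1A probe ranked ZR-75-30 above HCC1419. BMPR1B was found in HCC1954, with a higher ID1 response, and in ZR-75-30, with a lower one, and ACVR1 was high in the same pair. TGFBR2 was at background in HCC1419, the line with the largest ID1 response. The means of the brighter BMPR2 probe ran in the reverse order of the late rise of ID1, but within the spread of the arrays, and the dimmer probe, highest in MDA-MB-361 and lowest in HCC1954, did not. The vehicle level of ID1 itself was highest in MDA-MB-361 (15.71) and lowest in HCC1954 (14.35).

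The next question was whether BMP4 changed the expression of its own receptors. ID1 (probe at chr20:29657819-29657878) was higher with BMP4 on 30 of 30 arrays and its late rise was 1.02 (95% interval 0.75 to 1.29, limma adjusted p = 0.000504). Of the receptors, 0 of 9 passed the late rise test (background 0.0927% of probes) or the test of change over time (background 0.0902%). At each of the 6 times none passed against a ratio of 0 either (backgrounds, from the shortest time to the longest, 0.0805%, 0.973%, 0.349%, 0.176%, 0.463% and 1.58%). At an unadjusted p under 0.05, 2 of 9 receptors passed the late rise test, as did 4.99% of all probes, and 2 of 9 passed the test of change over time (4.20% of probes). In the order of the times, the unadjusted tests against 0 held 0, 0, 1, 1, 1 and 2 receptors, at 7.07%, 14.3%, 10.3%, 6.96%, 12.0% and 14.5% of probes. The intervals of the 9 late rises all lay between −0.37 and 0.38 (log2), that is, between 0.773-fold and 1.30-fold, so none reached the lower end of the interval of ID1. For BMPR1B and TGFBR3, at background on most arrays, these intervals do not bound the change. With alternative processing their late rises ran from −0.45 to −0.04 (BMPR1B) and from −0.69 to −0.16 (TGFBR3).

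**Figure D3:**
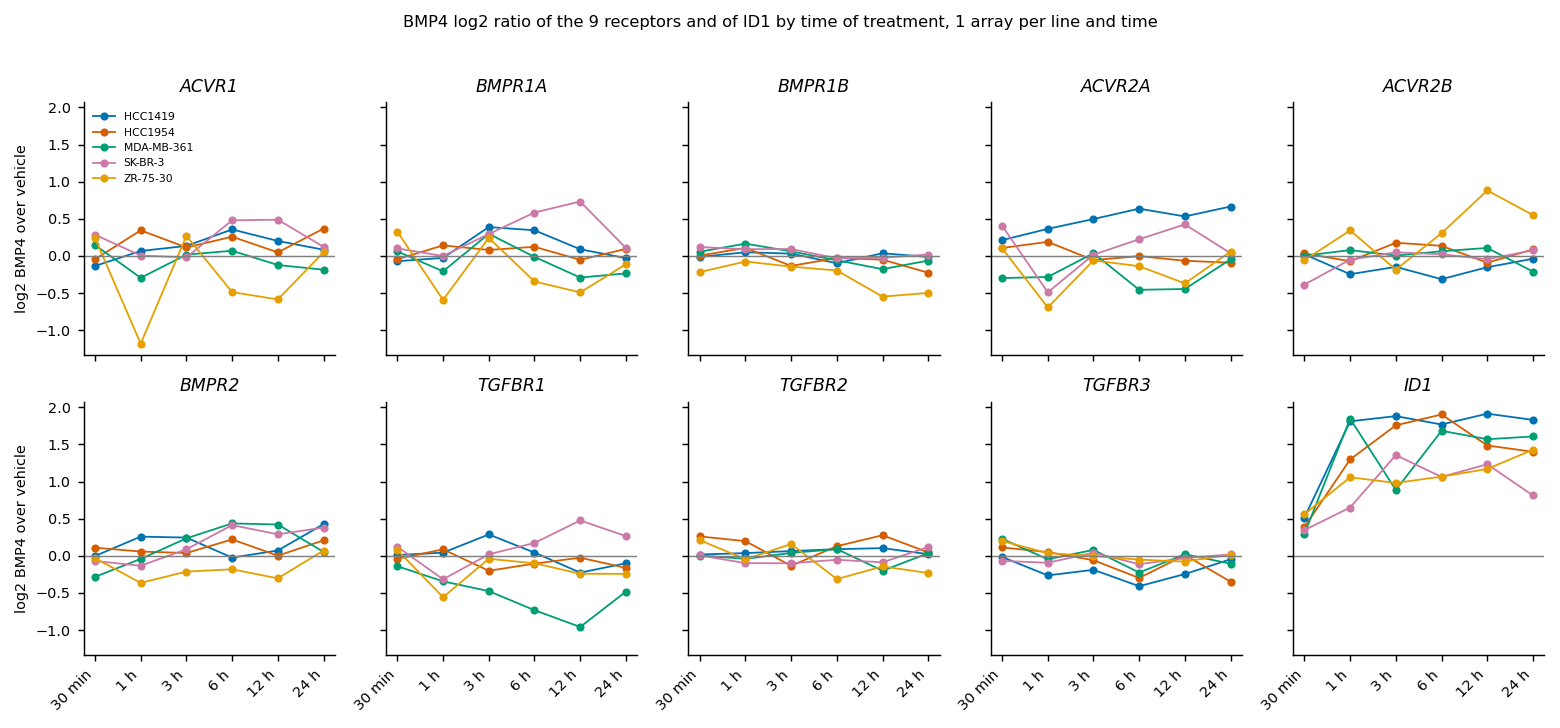
Log2 ratio of BMP4 over vehicle (vertical axis, shared by all panels) of each receptor and of ID1 at the 6 treatment times, 1 array per point and 1 line per cell line. ID1 reaches 0.65 to 1.85 by 1 h in all 5 lines, whereas the receptors scatter around 0, with the lowest value, −1.18, for ACVR1 in ZR-75-30 at 1 h.

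The smallest unadjusted p-values of the late rise were those of TGFBR3 and BMPR2. TGFBR3 gave a late rise of −0.19 ± 0.06 (log2 ± SE, adjusted p = 0.483), below 0 in 4 of 5 lines and above it in SK-BR-3. Since TGFBR3 was not above background on most arrays, its ratios are those of a dim probe. At 6 h its ratio was below 0 in all 5 lines, from −0.41 in HCC1419 to −0.05 in ZR-75-30. In both of these lines TGFBR3 was at background on every array in both channels, so their ratios carry no sign. The mean at 6 h was −0.22 ± 0.14 (SD, n = 5). This passed only with the cell line as a block (adjusted p = 0.0363, against 0.167 without).

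BMPR2 gave a late rise of 0.20 ± 0.09 (adjusted p = 0.965), above 0 in 4 of 5 lines, with 0.57 in MDA-MB-361 and −0.12 in ZR-75-30 at the ends. At 24 h its ratio was above 0 in 5 of 5 lines, at 0.43 in HCC1419, 0.38 in SK-BR-3, 0.21 in HCC1954, 0.07 in ZR-75-30 and 0.05 in MDA-MB-361. The mean of 0.23 ± 0.17 (SD, n = 5) had an adjusted p of 0.254, and array weights raised it to 0.34 (adjusted p = 0.00601). The dimmer BMPR2 probe was also above 0 in 5 of 5 lines at 24 h (mean 0.23 ± 0.22, adjusted p = 0.345), but below 0 in 5 of 5 at 1 h (−0.84 to −0.02, mean −0.39 ± 0.33, unadjusted p = 0.00141, adjusted p = 0.0849 by limma). Its late rise was 0.11 with an interval that covered 0.

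BMPR1A was above 0 in all 5 lines at 3 h, from 0.08 in HCC1954 to 0.39 in HCC1419 (mean 0.26 ± 0.11, SD, n = 5, adjusted p = 0.46). The other 2 BMPR1A probes were above 0 in 4 of 5 lines at 3 h (means 0.22 and 0.21), with HCC1954 at −0.09 and −0.19. At the other times the lines of the brightest probe lay on both sides of 0. BMPR1B can have a measured ratio only in the lines in which it was detected. There it stood at −0.03 in HCC1954 and −0.20 in ZR-75-30 at 6 h, and at −0.23 and −0.50 at 24 h. On the 24 h array of ZR-75-30 the BMP4 channel was not well above background, so that value was not measured in both channels. The test at 24 h (mean −0.16 ± 0.21, SD, n = 5, adjusted p = 0.276, and 0.0415 once the cell line was a block) also takes in 3 lines at background in both channels, whose ratios carry no sign.

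TGFBR2 lay on both sides of 0 in each of the 4 lines in which it was detected. In HCC1954 its ratio ran from −0.14 to 0.28 (median 0.16), in SK-BR-3 from −0.10 to 0.12 (median −0.07) and in ZR-75-30 from −0.31 to 0.21 (median −0.10). In MDA-MB-361 it ran from −0.20 to 0.09 (median 0.02). In HCC1419 the probe was at background in both channels, so its ratio there bears on no change. The late rise was −0.11 ± 0.07 (log2 ± SE, adjusted p = 0.965). The plot of late rises sets all 9 receptors beside ID1.

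**Figure D4:**
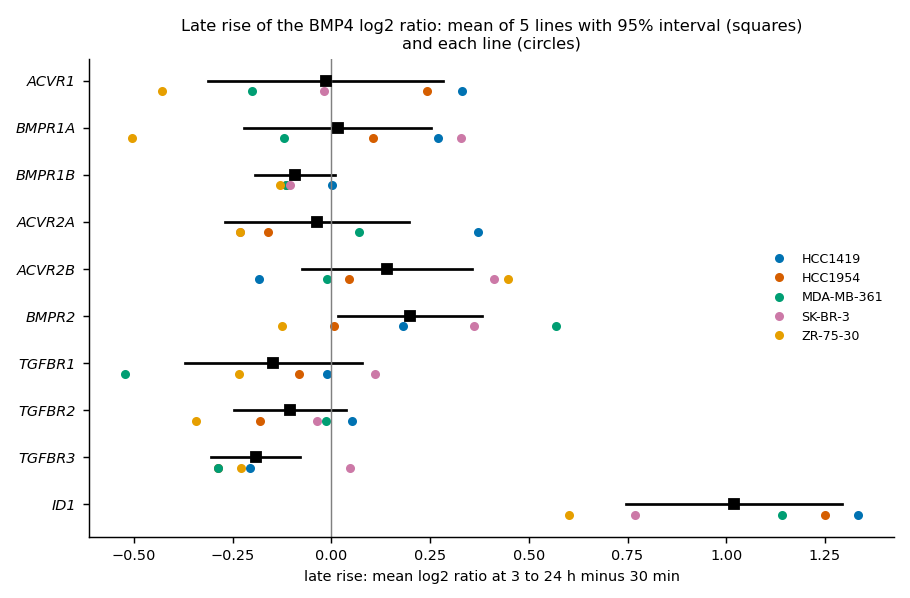
Late rise of the log2 ratio (mean at 3 to 24 h minus 30 min, horizontal axis) of each receptor and of ID1, with the mean of the 5 lines as a square, its 95% interval as a line and each cell line as a circle. The receptor means lie between −0.19 and 0.20, and ID1 lies at 1.02 with each of its 5 lines at 0.60 or more.

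Whether the lines responded differently was tested on the ratio over all 6 times. By limma's F test, 3 of 9 receptors passed (background 22.2% of probes). They were the type II receptor ACVR2A (adjusted p = 0.00403) and the type I receptors TGFBR1 (0.00789) and BMPR1B (0.00359). In HCC1419, MDA-MB-361 and SK-BR-3, BMPR1B was above background on no array in either channel, so its test takes in ratios that carry no sign. With the software's log ratio ACVR2A missed the threshold (0.0587), and with the authors' series matrix both ACVR2A (0.0698) and TGFBR1 (0.0582) did. The brightest ACVR2B probe did not pass (0.0559), while its dimmest probe did (0.0277). By the brightest probes, the receptors that did not pass had adjusted p-values from 0.0559 to 0.282 in this F test. With the filter on dim probes, which leaves out BMPR1B and TGFBR3, ACVR2B (0.0411) and BMPR2 (0.0492) passed as well.

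ACVR2A was higher with BMP4 on 6 of 6 arrays of HCC1419, with ratios of 0.21, 0.37, 0.50, 0.64, 0.53 and 0.67 in the order of the times. In MDA-MB-361 it was lower on 5 of 6 arrays (−0.46 to 0.04, median −0.29). The other lines lay on both sides of 0, ZR-75-30 between −0.69 and 0.10 and SK-BR-3 between −0.49 and 0.43. HCC1419 did not overlap with MDA-MB-361, ZR-75-30 or HCC1954 (−0.09 to 0.19). It is also the line with the highest ACVR2A level in vehicle and the largest ID1 response.

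TGFBR1 was lower with BMP4 on 6 of 6 arrays of MDA-MB-361, with ratios of −0.14, −0.34, −0.48, −0.73, −0.96 and −0.48 in the order of the times. SK-BR-3 was above 0 on 5 of 6 arrays, with 0.48 as the highest value and −0.32 as the lowest. In HCC1419 the ratio ran from −0.23 to 0.29, in HCC1954 from −0.20 to 0.09 and in ZR-75-30 from −0.56 to 0.08, so the arrays of MDA-MB-361 overlapped with those of each other line. BMPR1B was lower on 6 of 6 arrays of ZR-75-30 (−0.55 to −0.08, median −0.21). Its BMP4 channel was well above background on only 3 of these, and not at 12 h (−0.55) or 24 h (−0.50), where the ratio was lowest. In HCC1954, the other line in which BMPR1B was detected, it ran from −0.23 to 0.11 (median −0.04).

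Without MDA-MB-361, 0 of 9 receptors passed, at a background of 0.234% of probes. The F statistic of BMPR1B was then 11.01 (10.4 with all lines, adjusted p = 0.0614) and that of ACVR2A 9.17 (9.96, adjusted p = 0.075), so these calls were lost with F statistics of about the same size, whereas that of TGFBR1 was 2.60 (7.75, adjusted p = 0.343). Without HCC1419 the F statistic of ACVR2A was 3.02 (adjusted p = 0.169), and without ZR-75-30 that of BMPR1B was 1.38 (adjusted p = 0.467). With 1 scaling factor per array in place of loess, 0 of 9 receptors passed, at a background of 0.0244%, and the F statistics were 2.08 for BMPR1B, 4.52 for ACVR2A and 4.59 for TGFBR1. The late rise itself passed limma's test between lines for no receptor (0 of 9, background 0.0588%, and 0 of 9 at an unadjusted p under 0.05).

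The receptors also varied among the 6 arrays of a line, and this variation was shared. After the line means were taken away, the vehicle level of ACVR1 correlated across the 30 arrays with that of BMPR1A (Pearson r = 0.86), ACVR2A (0.83) and BMPR2 (0.77), and inversely with that of ACVR2B (−0.85). Correlation with TGFBR2 was weak (0.24). These are descriptions, since the arrays of a line share cells, slides and scan days.

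The same pattern ran through the array as a whole. A principal component was fitted to the vehicle levels of 25692 other probes within lines, and its first axis held 43% of their within-line variance. The score of an array on this axis correlated with the within-line level of ACVR2A at r = 0.94 (Spearman rho = 0.93), of ACVR1 at 0.91 (0.88), of BMPR1A at 0.91 (0.92) and of ACVR2B at −0.86 (−0.78). It was 0.68 (0.67) for BMPR2, 0.67 (0.65) for TGFBR1, 0.37 (0.46) for BMPR1B, 0.26 (0.32) for TGFBR3 and 0.14 (0.16) for TGFBR2. Without the 2 arrays farthest from the median score, r was 0.91 for ACVR2A, 0.89 for ACVR1, 0.91 for BMPR1A and −0.81 for ACVR2B.

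HCC1419 and MDA-MB-361, each scanned on 1 day, had level scores between −0.08 and 0.10. The scores of HCC1954, SK-BR-3 and ZR-75-30, each scanned on 2 days, ran from −0.33 to 0.19, −0.37 to 0.46 and −0.37 to 0.25. In SK-BR-3 the 30 min and 1 h arrays, which shared a day and a slide, had the highest scores (0.33 and 0.46) and the lowest share of probes above background in the series (58.9% on both), with ACVR1 at 9.12 and 9.29 against 8.28 to 8.68 on the others. Time and day cannot be told apart in that line. In HCC1954 the 30 min and 12 h arrays had the lowest scores (−0.27 and −0.33), with ACVR1 at 9.41 and 9.36 against 10.40 to 10.56 on the others, and the 1 h array of the same day as these 2 scored 0.09. In ZR-75-30 the day did not order the scores, as the 3 h and 12 h arrays of 1 day scored −0.37 and 0.13.

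**Figure D5:**
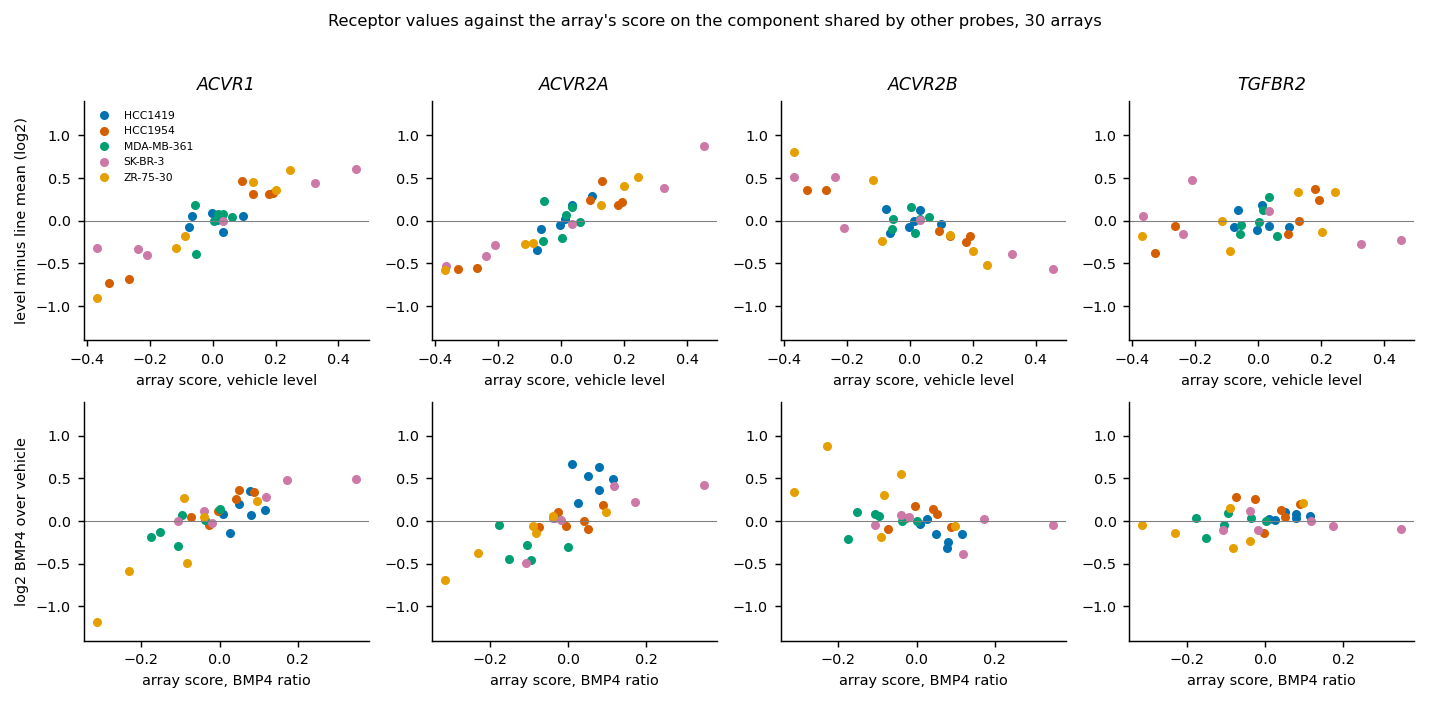
Vehicle level minus the line mean (upper row, log2) and log2 ratio of BMP4 over vehicle (lower row) of 4 receptors against the score of the array on the component shared by other probes (no unit), 30 arrays coloured by line. ACVR1 and ACVR2A rise with the score (r = 0.91 and 0.94 for the level) and ACVR2B falls (r = −0.86), while TGFBR2 shows no such relation (r = 0.14).

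The log2 ratios of 4 of the 9 receptors also went with this axis. Scored with the weights found in the vehicle channel, the ratio score of an array correlated with the log2 ratio of BMPR1A at r = 0.85 (Spearman rho = 0.74), of ACVR1 at 0.81 (0.79), of ACVR2A at 0.75 (0.78) and of TGFBR1 at 0.74 (0.78). For the other 5 it was −0.48 (−0.45) for ACVR2B, 0.42 (0.32) for BMPR2, 0.29 (0.26) for BMPR1B, 0.20 (0.27) for TGFBR2 and −0.18 (−0.19) for TGFBR3, and for ID1 it was 0.00 (0.03). The lowest ratio score, −0.31, was that of ZR-75-30 at 1 h, the array on which ACVR1 stood at −1.18, BMPR1A at −0.59, ACVR2A at −0.69 and TGFBR1 at −0.56. The highest, 0.35, was that of SK-BR-3 at 12 h, where the same 4 receptors stood at 0.49, 0.73, 0.43 and 0.48.

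The ratio score was above 0 on 6 of 6 arrays of HCC1419 and on 1 of 6 of MDA-MB-361 and of ZR-75-30, so it moved with the lines in which ACVR2A was higher and TGFBR1 lower. With the score as a covariate, ACVR2A (adjusted p = 0.00793), TGFBR1 (0.0377) and BMPR1B (0.00818) still differed between lines, at a background of 16.4%. For BMPR1B this test again took in the lines at background. In the same fit 0 of 9 receptors passed the late rise test, and BMPR1A passed against 0 at 3 h (0.27, adjusted p = 0.0164). In the levels, BMPR2 then passed between lines (adjusted p = 0.00855) and with hours in culture (0.32, adjusted p = 0.021).

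Other genes around these receptors were counted from a fixed list of 17 (further receptors, co-receptors, inhibitors and adaptors). In the vehicle channel 15 of 17 differed between lines, at the background of 73%, among them ENG, a co-receptor of TGF-beta, with a mean of 9.19 in SK-BR-3 against 6.69 to 7.64 in the other lines, where some arrays were at background (adjusted p = 1.73e-17). With BMP4, 0 of 17 passed the late rise test and 0 of 17 passed at any time point.

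Between lines, the ratio differed for 6 of 17 (background 22.2%). BAMBI, a pseudoreceptor without a kinase that dampens signalling, was higher with BMP4 on 6 of 6 arrays of HCC1419 (0.74 to 1.44, median 1.11) and stayed near 0 in MDA-MB-361 (mean 0.01, adjusted p = 0.000572 between lines). The others were the BMP co-receptor RGMB (adjusted p = 0.0139), the ubiquitin ligase SMURF2 (0.0113), the receptor-associated proteins STRAP (0.0257) and TGFBRAP1 (0.0024), and ZFYVE16, an endosomal SMAD adaptor (0.0227). MDA-MB-361 had the highest mean for TGFBRAP1 (0.37) and the lowest for RGMB (−0.16), STRAP (−0.17) and ZFYVE16 (−0.19).

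For the 3 receptors with the widest range over the lines, the genes with the most similar vehicle level over the 30 arrays of the 5 lines were listed. TGFBR2 was closest to COTL1 (r = 0.979), PRKAG2 (0.974) and ME2 (0.968), all 3 highest in HCC1954 and lowest in HCC1419. ACVR2A was closest to YWHAZ (0.954), SYNJ2 (0.932) and ERMAP (0.923), and ACVR1 to FBXO34 (0.946), IRAK4 (0.941) and ZNF281 (0.938). With 5 lines, the r of TGFBR2 rests mainly on the line means. Those of ACVR2A and ACVR1 also hold variation within lines (SD 0.39 and 0.42), which went with the array score (r = 0.94 and 0.91).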

How the data were processed

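RNA of BMP4-treated and vehicle-treated cells was hybridised to two-colour Agilent whole genome arrays. Per the file headers, the authors extracted spots with Feature Extraction 9.5.1.1 on build hg18. The deposited mean, background and processed signals are intensity values, the first 2 not normalised. The log10 ratio of the processed Cy5 and Cy3 signals was deposited too. The authors' series matrix holds log2 ratios with array medians of 0 (r with the software's log ratio at least 0.9999 per array), and was used as an alternative.

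Intensities were background corrected (normexp, offset 50) and loess normalised within arrays, with 1639 control spots given no weight and spots marked as outliers removed, and averaged per probe (41000 probes) with limma 3.58.1 in R 4.3.3. Levels are log2 Cy3 values after quantile normalisation of the average signal between arrays. Spike-in slopes of 0.525 to 0.877 (1 would be uncompressed) show compressed ratios. The number of arrays, each a pool, sets the precision, so p-values measure the spread between lines or between arrays of 1 line.

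Linear models were fitted in limma (lmFit, eBayes), p-values were adjusted over all probes by Benjamini-Hochberg, and the threshold was 0.05. They covered vehicle levels between lines (F test, time in the model) and in pairs, vehicle level with hours in culture, each time against 0, late rise, change over time, and ratio and late rise between lines. Time tests other than against 0 had the cell line as a block. Arrays were paired by the cell line that the labels name. Deviations from time means correlated at a mean r of 0.232 within lines and −0.0884 between lines, with 44 of 75 pairs of the same line over 0.1. No sample is missing from any fit except the 1 h arrays in the late rise between lines. The late rise test and the test of vehicle level between lines were run on simulated data with independent noise on each array. Variation shared by arrays, as found here, was not simulated. Probes named in the text are all those of the 9 receptors, ID1 and the list of 17 genes (brightest probe of each), with the 3 most similar genes of the 3 receptors of widest range. The members and lists were chosen with earlier results of these data known. Alternatives were 1 factor per array, the software's log ratio, the series matrix, array weights, a filter on dim probes (well above background on more than 15 arrays), leaving out each line, the block, the scan day as a random block, 2 other level scalings (quantiles of Cy3 alone, and the processed signal over its 75th percentile), the Cy5 channel, and means over a gene's probes. The slide as a random block and the array score as a covariate were added after the data were seen.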

Additional observations from a re-analysis of the deposited data

Results flagged for a closer look

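Among 99 groups of 5 or 6 arrays (6 vehicle levels per line, or 5 ratios per time point, for each receptor), 7 held a value far from the rest by Dixon's criterion, which chance gives in about 1 of 20 groups. In the vehicle channel of MDA-MB-361 these were ACVR1 at 30 min (8.37 against 8.76 to 8.94 on the other arrays) and BMPR1A at 1 h (10.68 against 10.37 to 10.46). In the ratios they were ACVR2A in HCC1419 at 3 h (0.50 against −0.06 to 0.04 in the other lines) and at 24 h (0.67 against −0.09 to 0.06), ACVR2B in SK-BR-3 at 30 min (−0.39 against −0.06 to 0.03) and in ZR-75-30 at 12 h (0.88 against −0.15 to 0.11), and TGFBR2 in ZR-75-30 at 24 h (−0.23 against 0.02 to 0.12). The array of ZR-75-30 at 12 h had a ratio score of −0.23, the second lowest of the 30. The ratio differed between lines by limma's F test for BMPR1B (adjusted p = 0.00359), ACVR2A (0.00403) and TGFBR1 (0.00789). BMPR1B was at background in HCC1419, MDA-MB-361 and SK-BR-3.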

How the results depend on the processing

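Of 187 recomputed counts of receptors and ID1 responses, 174 stayed near the reported value in size, and no ID1 response changed sign. A count could stay near in size while the receptors in it changed. With the series matrix, the ratio between lines lost ACVR2A and TGFBR1 and gained TGFBR3. The late rise of every receptor failed to pass in all 133 recomputations (17 of them with the sign turned), and 115 of 124 level ranges kept their call. The count of receptors whose ratio differed between lines went from 3 to 0 with 1 factor per array, and ran from 0 to 4 when 1 line was left out. The software's log ratio called BMPR1B, TGFBR1 and TGFBR3 there, and the series matrix BMPR1B and TGFBR3. BMPR1B, at background in HCC1419, MDA-MB-361 and SK-BR-3, was thus called in all 3 versions of the ratio other than 1 factor per array. Of these, the software's log ratio and the series matrix are nearly the same values (r at least 0.9999 per array), not separate support. Against 0, the cell line as a block gave counts of 1 in place of 0 (TGFBR3 at 6 h, BMPR1B at 24 h). Among all probes it called 213 in place of 72 and 1815 in place of 647. Array weights gave 1 at 24 h (BMPR2), and the array score gave 1 at 3 h (BMPR1A) and with hours in culture (BMPR2). The block changed no other receptor's call. The ID1 response by the mean of 1 to 24 h was 1.14 in ZR-75-30, 1.02 in SK-BR-3, 1.52 in MDA-MB-361, 1.57 in HCC1954 and 1.84 in HCC1419. The late rise of ID1 in HCC1419 was 2.82 with 1 factor per array, against 1.33 as reported. Among all probes, calls ran from 10 to 10131 (9097 as reported) for the ratio between lines, 3 to 165 (38) for the late rise, 0 to 184 (37) for change over time, 1 to 670 (24) for the late rise between lines and 2 to 2718 (1041) with hours in culture. Against 0 they ran from 0 to 1675 at 30 min (33 as reported), 27 to 1037 at 1 h (399), 8 to 1015 at 3 h (143), 5 to 265 at 6 h (72), 6 to 777 at 12 h (190) and 110 to 2187 at 24 h (647). The cause of these shifts was not tested. Random blocks used a correlation estimated on every 8th probe. BMPR1B, TGFBR3 and, in HCC1419, TGFBR2 were at or near background, where the arrays can show only large changes.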
